A study of Mus musculus with 899 samples.

Results

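The miR-15 and miR-16 family of mouse plasma is represented by 5 mature miRNA, mmu-miR-15a-5p, mmu-miR-15b-5p, mmu-miR-16-5p, mmu-miR-195a-5p and mmu-miR-322-5p. They were chosen by name, as 5 of the 1915 mature miRNA of the count table, and all 5 were among the 483 miRNA with enough reads to be tested. Reads per mature miRNA had been counted in 899 plasma samples of 196 mice, to follow circulating miRNA after irradiation of the thorax. The mice were C3H (C3Hf/Sed/Kam, 402 samples) or C57Bl/6 (497 samples), of both sexes and 8 to 12 weeks old at the start. Irradiated mice (64 C3H, 68 C57Bl/6) received a single dose to the whole thorax, and 32 mice of each strain were sham irradiated. Plasma was taken before irradiation (PT), at day 2 or day 5 (D2, D5) and then monthly (M1, M2 and so on), to M4 in C3H and to M6 in C57Bl/6.

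The labels name no transgene or drug. Every later sample came from a mouse that was still alive. From M2 on, irradiated groups shrank with time while 16 sham mice remained in each strain. The mouse identifiers carry a code that the labels do not explain, G1 or G3 in C57Bl/6 and G2 or G4 in C3H, each with irradiated and sham mice. Samples after M1 came only from G1 and G2 mice, so that sham groups fell there too, from 32 to 16 mice in each strain. In addition, 4 irradiated C57Bl/6 mice with 19 samples from M1 on had no PT sample. Total reads ran from 206490 to 11814515 per sample (median 1475030), and no 2 samples had identical counts. Levels are given as log2 CPM, the log2 of counts scaled to a common library size by TMM (CPM), so that 1 unit is a doubling. The members are 21 or 22 bases long, so levels were compared between them without a correction for length. Whether the library preparation captures each sequence equally was not tested.

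Members of this family share their seed, the bases near the 5′ end through which a miRNA pairs with its target messenger RNA, and are known for holding back cell cycle genes such as cyclins and for acting on BCL2. miR-15a and miR-16 lie together in a host transcript that is lost in many chronic lymphocytic leukaemias, and miR-15b and miR-16 form a sister cluster. miR-16 is abundant in blood cells and plasma, where it is often used as a reference, and red blood cells are a major source of it. miR-195a is encoded beside miR-497a, and miR-322, the mouse counterpart of human miR-424, beside miR-503 and miR-351.

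All 5 sequences were found in RefSeq (GRCm38.p6). They are shown because the members differ only outside the seed, given in capitals (bases 2 to 8), and because near-identical members could share reads.

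miR-15a-5p: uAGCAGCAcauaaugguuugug
miR-15b-5p: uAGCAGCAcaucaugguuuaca
miR-16-5p: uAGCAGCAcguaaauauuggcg
miR-195a-5p: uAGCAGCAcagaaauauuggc
miR-322-5p: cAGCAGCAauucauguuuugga

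In GRCm38.p6, the gene of miR-15b-5p (chr3:69009775-69009796, plus strand) and a first gene of miR-16-5p, Mir16-2 (chr3:69009918-69009939, plus strand), lie in introns of Smc4, which encodes a subunit of condensin. The gene of miR-15a-5p (chr14:61632075-61632096, minus strand) and the other gene of miR-16-5p, Mir16-1 (chr14:61631936-61631957, minus strand), lie in introns of the noncoding transcript Dleu2. Both genes give the same mature miR-16-5p, so its reads cannot be assigned to either. miR-195a-5p (chr11:70235062-70235082, plus strand) and miR-322-5p (chrX:53054306-53054327, minus strand) have no host gene in the GENCODE annotation, from which the host genes were read.

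The closest pair was miR-16-5p and miR-195a-5p, which differed at 2 of 21 compared bases, G10A and U11G, with positions counted from 1 at the 5′ end. miR-15a-5p and miR-15b-5p differed at 4 of 22 (A12C, G20A, U21C and G22A), and miR-15a-5p and miR-16-5p at 6 of 22. Since miR-16-5p had 1630 times the reads of miR-195a-5p, its value is uncertain if any reads were assigned to the wrong one of this pair, and the part of such reads was not tested. Between mice before irradiation and within a code, the correlation of their levels lay between -0.14 and 0.20. The seed AGCAGCA was found in 10 mature mouse names at 11 positions, and besides the members only miR-497a-5p had reads enough to be tested. The other 4 names (miR-195b, miR-6342, miR-6353 and miR-6419) had 0 reads over the 899 samples, including miR-6353, whose first 12 bases equal those of miR-16-5p. miR-1907, listed by name only, had 0 reads too.

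miR-16-5p was by far the most abundant member and the most abundant miRNA of mouse plasma in these libraries. It held 45.7% of all 1523756227 reads and was ranked first in 897 of 899 samples. Its share of a sample ran from 16.2% to 71.8% (median 46.2%), from 103622 to 4576066 reads.

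**Figure D1:**
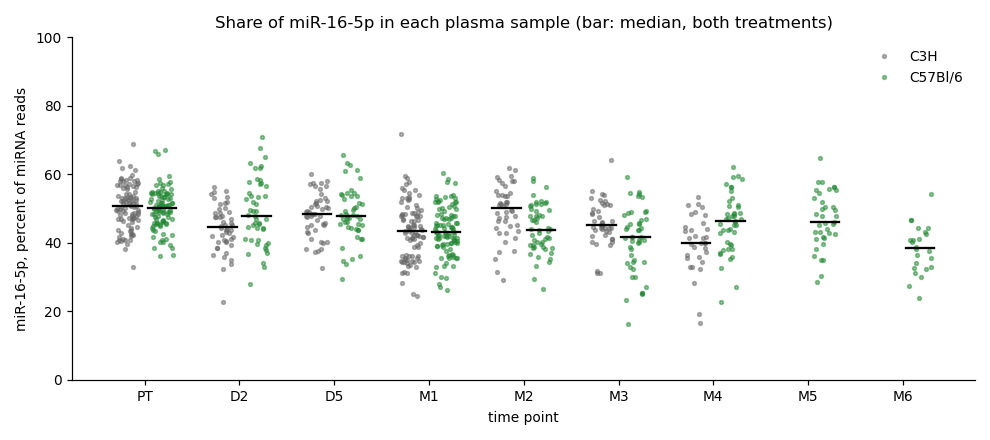
Each point is a plasma sample, placed by time point and strain, and the vertical axis is the percent of its miRNA reads that were miR-16-5p. Points spread between 16.2% and 71.8% around an overall median of 46.2%.

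The other 4 members were lower by 3 orders of magnitude or more. miR-322-5p had a median of 558 reads per sample and 8.58 log2 CPM, and miR-195a-5p, a miRNA known for being high in muscle and heart, 377 reads and 8.01 log2 CPM. The median of miR-15b-5p was 89 reads (5.97 log2 CPM) and that of miR-15a-5p 46 reads (4.99 log2 CPM), against 677502 reads (18.77 log2 CPM) for miR-16-5p. In summed reads, miR-16-5p exceeded its neighbour miR-15b-5p by 6750-fold and its neighbour miR-15a-5p by 13300-fold, although each shares a host transcript with a miR-16 gene.

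The order of levels was nearly the same from sample to sample except in the middle. Within a sample, miR-195a-5p exceeded miR-15b-5p in 890 of 899 samples and miR-15b-5p exceeded miR-15a-5p in 856. miR-322-5p exceeded miR-195a-5p in only 646 samples (71.9%), with a median difference of 0.54 on the log2 scale that ran from -1.99 to 3.11, so the order of these neighbours was not fixed. miR-15a-5p was at 0 reads in 9 samples and miR-15b-5p in 2, all from C57Bl/6 mice at D2 or D5. In those libraries 3 counts, the limit that a count of 0 allows, corresponded to 3.4 to 14.5 CPM, and such limits cover counting error only.

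The spread between samples of 1 group was smallest in miR-16-5p and miR-195a-5p, each with a pooled within-group SD of 0.50 log2 units, against a median of 0.85 over all tested miRNA. Only 9.11% of tested miRNA varied less than miR-16-5p. The SD was 0.62 for miR-322-5p, 0.75 for miR-15b-5p and 0.86 for miR-15a-5p. Among these the SD rose as read number fell, but miR-195a-5p had fewer reads than miR-322-5p (median 377 against 558) and a smaller SD. Group means of miR-16-5p lay between 18.19 (sham C57Bl/6 at M6) and 19.15 (C3H before irradiation, mice assigned to irradiation). Those of miR-195a-5p lay between 7.43 (irradiated C3H at D5) and 9.14 (sham C57Bl/6 at D5).

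**Figure D2:**
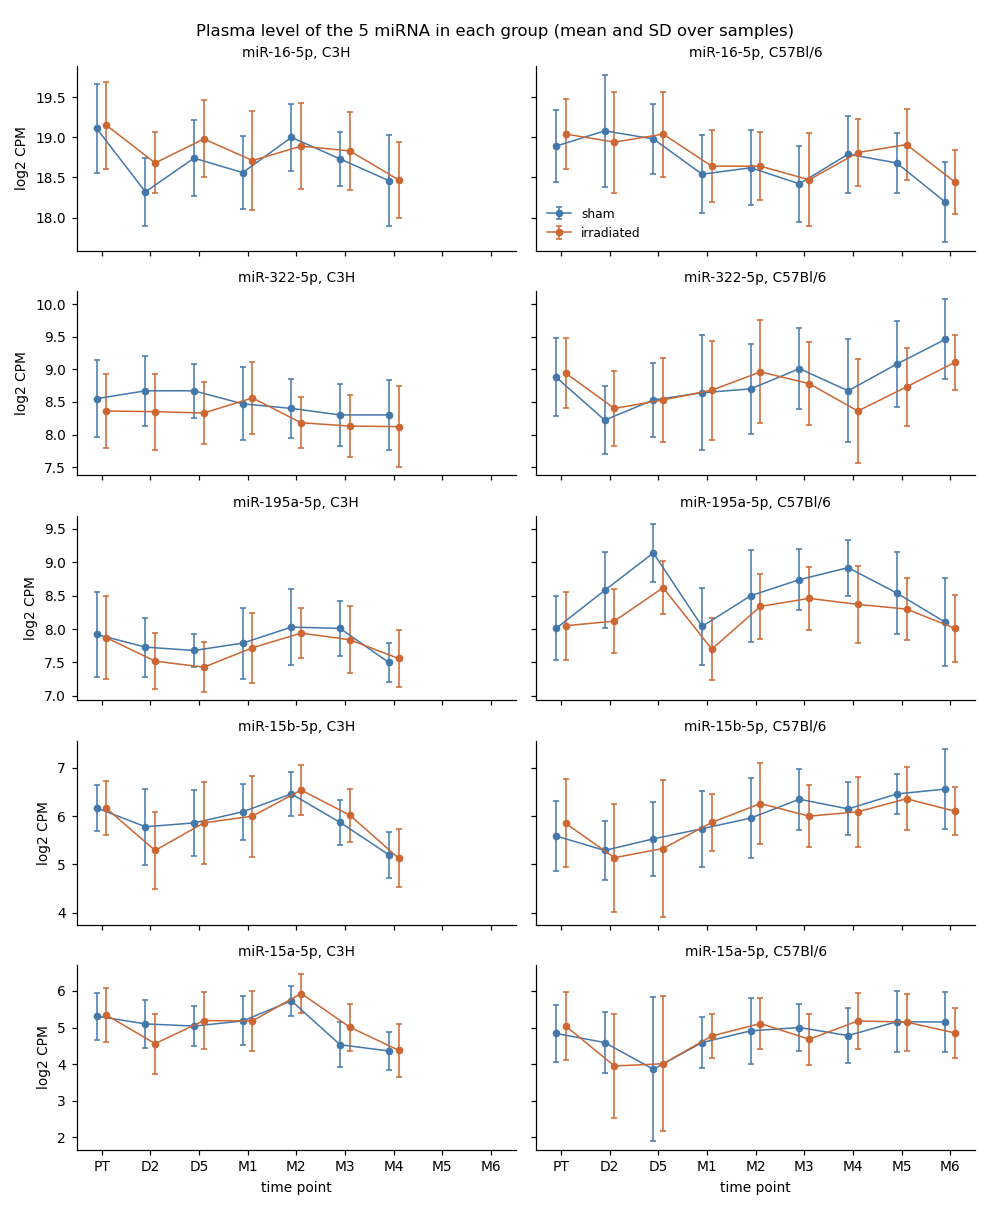
Each panel gives 1 member in 1 strain, with time points on the horizontal axis and log2 CPM on the vertical axis; points are group means and bars the SD over samples, for irradiated and sham mice. Irradiated miR-195a-5p lay below sham at every time point after irradiation in C57Bl/6, while the groups of the other members crossed.

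Before irradiation the mice assigned to irradiation and to sham did not differ past the threshold in any of 10 member comparisons (5 members in 2 strains), by the quasi-likelihood test of edgeR adjusted over 483 miRNA after Benjamini and Hochberg (lowest adjusted p = 0.842). Of all tested miRNA, 0.0% were called at PT in C3H mice and likewise 0.0% in C57Bl/6 mice. The largest value was 0.34 (SE 0.16) for miR-15b-5p in C57Bl/6, whose unadjusted p of 0.0352 was the only one of the 10 under 0.05.

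After irradiation, the miRNA of the family that changed was miR-195a-5p, and it was lower in irradiated than in sham C57Bl/6 mice at D2, D5, M1 and M4. These were 4 of 40 member effects in this strain (5 members at 8 time points), all lower, and the largest was a 0.691-fold level at D5. None of the 30 effects in C3H passed the threshold. miR-15a-5p, miR-15b-5p, miR-16-5p and miR-322-5p passed at no time point in either strain. In plasma, fewer releasing cells and less release per cell cannot be told apart.

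Over all 483 tested miRNA, the calls in C57Bl/6 made up 6.63% at D2, 14.1% at D5, 3.73% at M1, 3.31% at M2, 1.66% at M3, 4.76% at M4, 3.52% at M5 and 0.414% at M6. With 1 of 5 members called at each of D2, D5, M1 and M4, the family as a whole cannot be set apart from this background.

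At D2, miR-195a-5p ran from 7.14 to 9.14 log2 CPM (median 8.16) in 32 irradiated C57Bl/6 mice and from 7.37 to 9.62 (median 8.54) in 16 sham mice. The ranges overlapped, with 26 of 32 irradiated mice below the sham median. The means were 8.12 ± 0.48 and 8.58 ± 0.57 (SD), and the fitted difference was -0.48 (SE 0.15, edgeR adjusted p = 0.024), a 0.715-fold level.

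At D5 the irradiated mice ran from 7.92 to 9.42 log2 CPM (median 8.69, n = 32) and the sham mice from 8.49 to 9.89 (median 9.05, n = 16). Again the ranges overlapped, and 29 of 32 irradiated mice lay below the sham median. The difference was -0.53 (SE 0.15, edgeR adjusted p = 0.00492), between means of 8.62 ± 0.40 and 9.14 ± 0.43 (SD). Both groups stood above their level before irradiation, by 0.55 ± 0.58 in irradiated mice (26 of 32 higher than in their own PT sample) and by 1.1 ± 0.5 in sham mice (16 of 16 higher). The difference between these changes, fitted within mice, was -0.52 and did not pass (limma-voom adjusted p = 0.0606).

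The M1 groups were the largest, with 68 irradiated mice between 5.87 and 8.68 log2 CPM (median 7.71) and 32 sham mice between 6.37 and 8.91 (median 8.17). Most irradiated mice (59 of 68) lay below the sham median, with overlap of the ranges. The difference of -0.37 (SE 0.11, edgeR adjusted p = 0.014) was a 0.773-fold level. At M4 the 29 irradiated mice ran from 7.16 to 9.33 (median 8.37) and the 16 sham mice from 8.09 to 9.75 (median 8.87). The groups overlapped, 23 of 29 irradiated mice were below the sham median, and the difference was -0.50 (SE 0.15, edgeR adjusted p = 0.0275), a 0.706-fold level. Differences at M2 (-0.22), M3 (-0.27), M5 (-0.30) and M6 (-0.14) had the same sign without passing (adjusted p from 0.366 to 0.851 by edgeR).

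**Figure D3:**
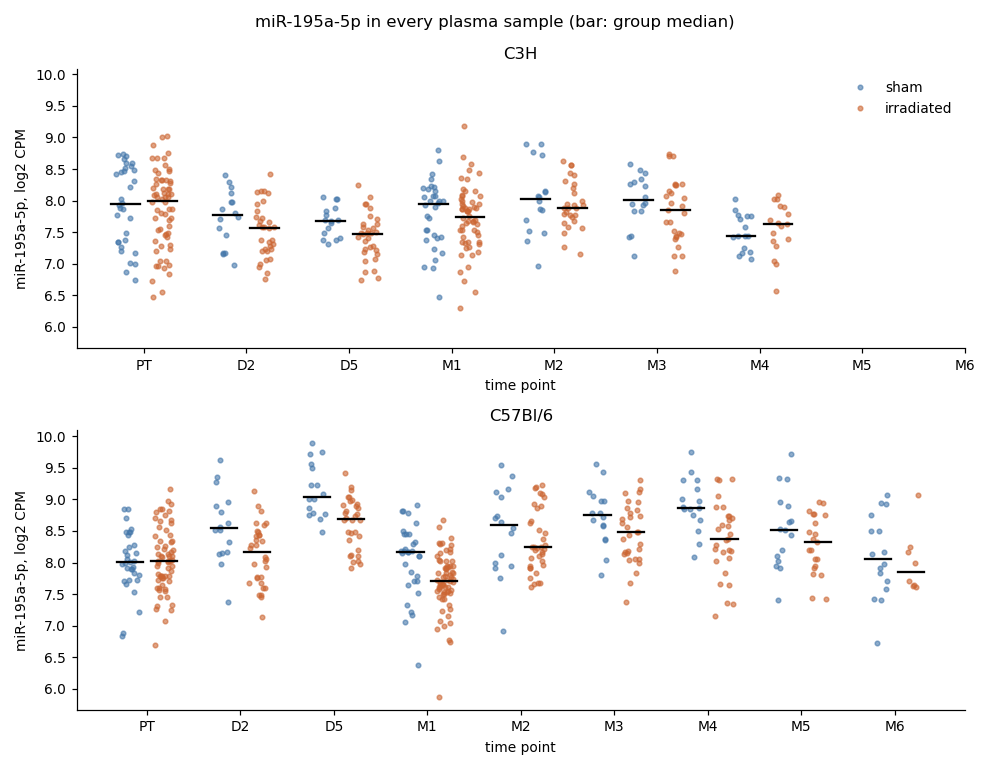
Each point is miR-195a-5p in 1 plasma sample (log2 CPM, vertical axis) by time point, for irradiated and sham mice of each strain, with the group median as a bar. In C57Bl/6 the irradiated median lay below the sham median at D2 (8.16 against 8.54), D5 (8.69 against 9.05), M1 (7.71 against 8.17) and M4 (8.37 against 8.87), with overlapping points.

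The comparison was repeated within each code and sex. In G1 mice alone the miR-195a-5p difference was -0.60 at D2, -0.72 at D5, -0.46 at M1 and, where all mice were G1, -0.50 at M4, with edgeR adjusted p between 0.00891 and 0.0313. In G3 mice alone it was -0.35 at D2 (adjusted p = 0.464), -0.33 at D5 (0.246) and -0.28 at M1 (0.432), the same sign but past the threshold at no time point. The difference between the codes was not tested.

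In females alone it was -0.85 at D2 (adjusted p = 0.000896) and -0.26 at D5 (0.401), and in males alone -0.05 at D2 (0.941) and -0.78 at D5 (0.0111). At M1 the values were -0.49 in females (adjusted p = 0.0198) and -0.24 in males (0.658), and at M4 -0.66 (0.0537) and -0.34 (0.482). The test of the sex difference itself over D2, D5 and M1 gave p = 0.00895 and adjusted p = 0.101 by edgeR for miR-195a-5p in C57Bl/6, and passed with code and sex as covariates (adjusted p = 0.0475).

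Since the samples of a mouse share its number, the comparison was also made with the mouse in the model. A replicate block allows for correlation between the samples of a mouse and still compares different mice. With the mouse as a replicate block the M1 difference was -0.33 with adjusted p = 0.0651 (limma-voom), and D2, D5 and M4 remained past the threshold. With each mouse set against its own PT sample, a fixed replicate block, the test was also limma-voom. The differences were -0.59 at D2 (limma-voom adjusted p = 0.0307), -0.52 at D5 (0.0606), -0.37 at M1 (0.335) and -0.47 at M4 (0.143). The main fit used edgeR, so against it test and blocking changed together. Limma-voom without a block was also run, and it already kept fewer miR-195a-5p calls than edgeR. Adding the replicate block to limma-voom did not lower the number of these calls further. With the fixed replicate block, which also changed the comparison to the own PT sample, fewer calls remained than in limma-voom without a block.

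In C3H the miR-195a-5p difference ran from -0.22 at D5 to 0.08 at M4, without a call (lowest adjusted p = 0.519 by edgeR). At D2 the level was 7.52 ± 0.42 (SD, n = 32) in irradiated and 7.73 ± 0.44 (n = 16) in sham mice, and 24 of 32 irradiated mice lay below the sham median. That C57Bl/6 differed from C3H in this response was not shown. The F test of the strain difference of the irradiation effect over the 6 shared time points gave p = 0.0255 and adjusted p = 0.323 by edgeR for miR-195a-5p, and called 0 of 5 members, against 4.35% of all miRNA. At M4 the effects differed between strains by -0.58 (95% confidence interval -1.04 to -0.13, adjusted p = 0.268 at that time point).

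**Figure D4:**
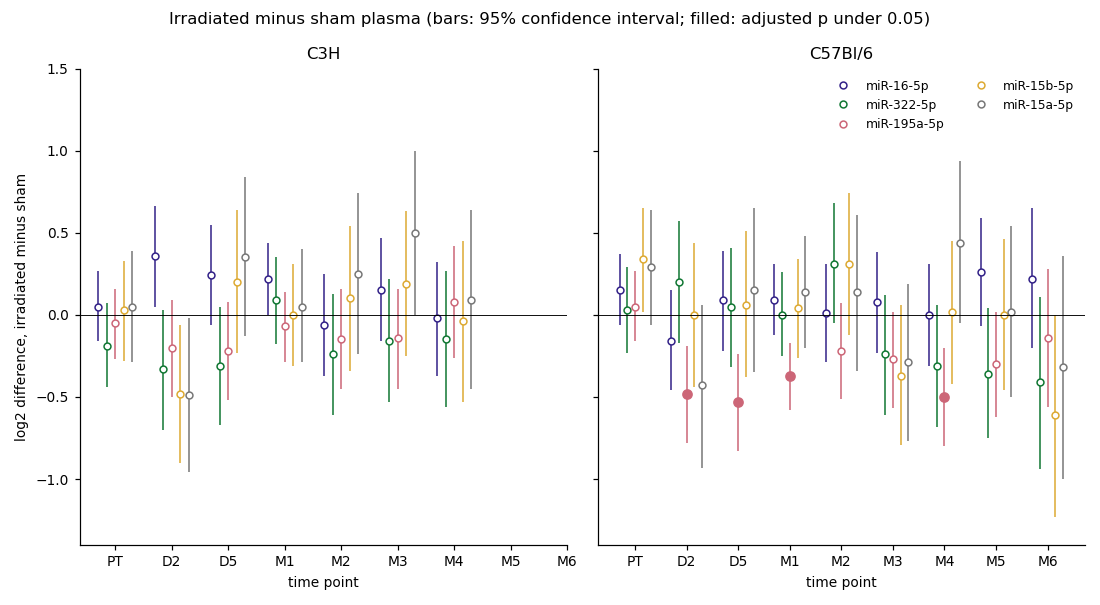
The vertical axis is the fitted log2 difference of irradiated minus sham mice for each member, by time point and strain, with 95% confidence intervals as bars; filled points have an adjusted p under 0.05. The filled points are miR-195a-5p in C57Bl/6 at D2 (-0.48), D5 (-0.53), M1 (-0.37) and M4 (-0.50).

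Other blood-borne miRNA were examined beside the miR-195a-5p calls. The red blood cell list held miR-451a, miR-144-3p, miR-144-5p, miR-486a-5p and miR-486b-5p, all 5 tested and none at 0 reads throughout a group. It had no call at D2, M1 or M4 in C57Bl/6 and 1 higher at D5. Its median difference was -0.35 at D2, 0.19 at D5, 0.00 at M1 and 0.21 at M4. miR-486a-5p and miR-486b-5p had nearly the same reads in all (42879762 and 42871245). Whether these were the same reads counted under both names was not tested. The summed share of the list counts both of these names. At D5 it was 2.95% to 6.5% of reads in irradiated and 0.618% to 8.19% in sham mice, and at D2 2.83% to 8.72% and 3.13% to 8.77%. The difference of miR-451a and miR-23a-3p, a measure of haemolysis, was -0.77 ± 1.01 in irradiated and -0.16 ± 0.83 in sham mice at D2 and differed less at D5 (-0.60 ± 0.91 and -0.46 ± 0.95).

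The leukocyte list had calls at both early time points, with the larger shift at D5. Of its 6 miRNA, none at 0 reads throughout a group, 2 were lower at D2 and 4 at D5 in C57Bl/6, with a median difference of -0.25 at D2 against -0.06 over all tested miRNA and of -1.11 at D5 against 0.00. Its summed share at D5 was 0.677% to 2.09% in irradiated and 1.0% to 3.36% in sham mice, and at D2 0.521% to 2.54% and 0.921% to 2.81%. At M1 and M4 it had 0 calls, with 1.2% to 4.65% and 1.32% to 4.12% in irradiated and 1.43% to 4.2% and 1.44% to 3.95% in sham mice. The part of leukocyte RNA in the miR-195a-5p difference was not tested.

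Of the muscle list, 0 of 3 were called at these 4 time points. Its median difference was -0.51 at D2, 0.32 at D5, -0.36 at M1 and -0.66 at M4. Over all tested miRNA the medians were -0.06, 0.00, -0.05 and -0.07. The liver list (miR-122-5p and miR-192-5p) had 1 higher and 1 lower at D2 and at D5, none at M1, and both higher at M4 with a median difference of 2.05. The platelet and endothelium list held miR-126a-3p, miR-126a-5p and miR-223-3p, of which miR-223-3p is also in the leukocyte list. It had 1 higher and 1 lower of 3 at D5 and none at D2, M1 or M4. The part of these lists in the difference was not tested either. With the members and the red blood cell miRNA left out of the library scaling, all 4 calls of miR-195a-5p remained.

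miR-16-5p showed no called difference after irradiation in either strain. In C57Bl/6 its differences lay between -0.16 and 0.26, with 95% confidence intervals reaching from -0.46 to 0.65. The largest value was in C3H at D2, where the level was 18.68 ± 0.38 in 32 irradiated mice (17.85 to 19.42, median 18.64) and 18.32 ± 0.42 in 16 sham mice (17.37 to 18.96, median 18.27). The ranges overlapped and 4 of 32 irradiated mice were below the sham median. The difference was 0.36 (SE 0.16, edgeR p = 0.024, adjusted p = 0.196) and passed only in DESeq2 (0.42, adjusted p = 0.0489).

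At the same time point, miR-15a-5p and miR-15b-5p were lower in irradiated C3H mice, by values that did not pass. For miR-15a-5p the 32 irradiated mice had 4.56 ± 0.82 (2.41 to 6.04, median 4.63) and the 16 sham mice 5.10 ± 0.66 (3.98 to 6.34, median 5.02), a difference of -0.49 (SE 0.24, edgeR p = 0.0416, adjusted p = 0.275). For miR-15b-5p the corresponding levels were 5.29 ± 0.80 (3.71 to 6.76, median 5.25) and 5.78 ± 0.79 (4.33 to 7.12, median 6.02), a difference of -0.48 (SE 0.22, edgeR p = 0.0261, adjusted p = 0.204). In both, the groups overlapped and over 20 of 32 irradiated mice were below the sham median. Together with miR-16-5p these are the 3 of 30 C3H effects with an unadjusted p under 0.05.

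Called miRNA in C3H made up 4.97% of all tested at D2, 3.11% at D5, 3.31% at M1, 0.621% at M2, 2.07% at M3 and 0.414% at M4. The leukocyte list was lower there too, with 4 of 6 called at D2 and 3 at D5. The red blood cell list, in which miR-486a-5p and miR-486b-5p had nearly the same reads, had 2 higher at D5. Over the 30 C3H effects of the 5 members the values lay between -0.49 and 0.50, with 95% confidence intervals from -0.96 to 1.0.

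miR-15a-5p in C57Bl/6 differed in sign between the codes. Pooled, the difference was -0.43 (adjusted p = 0.338) at D2 and 0.15 (0.784) at D5 by edgeR. In G1 mice alone it was -1.01 (adjusted p = 0.0297) and -1.05 (0.047), and in G3 mice alone 0.17 (0.837) and 0.51 (0.257). At D2 and D5, the 6 irradiated samples with 0 reads of miR-15a-5p were of G1 mice. The 3 sham samples at 0, all from D5, were of G3 mice, so no G3 sample was at 0 reads at D2. The part of the samples at 0 reads in the opposite values was not tested. The difference between the codes was not tested.

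miR-322-5p differed between irradiated and sham mice by -0.41 to 0.31 in C57Bl/6 and by -0.33 to 0.09 in C3H, with the lowest adjusted p at 0.366. In C3H it was lower in irradiated mice at 5 of 6 time points. At C57Bl/6 M6, the time point with only 8 irradiated mice, the widest intervals were seen, with -0.61 for miR-15b-5p (95% confidence interval -1.23 to 0.00) and -0.41 for miR-322-5p (-0.94 to 0.11).

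The miRNA made from the same transcripts were looked at next, from lists of seed-sharing miRNA, opposite arms and cluster neighbours. miR-497a-5p, encoded beside miR-195a-5p and with the same seed, had 42649 reads in all, 9.99-fold fewer than miR-195a-5p. Its differences in C57Bl/6 were -0.58 at D2 (adjusted p = 0.124), -0.52 at D5 (0.132), -0.23 at M1 (0.561) and -0.66 at M4 (0.0656) by edgeR. All had the sign of miR-195a-5p, with none past the threshold.

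Of the 6 opposite arms, all tested, miR-15b-3p was lower at D2 in C57Bl/6, by -0.70 (SE 0.18, edgeR adjusted p = 0.00401). miR-15b-5p was then at 0.00 (SE 0.22), and 6.63% of all tested miRNA were called. The arms of miR-15b were close in number, with 103150 reads of miR-15b-5p and 150724 of miR-15b-3p, whereas miR-15a-5p exceeded miR-15a-3p by 8.59-fold, miR-322-5p exceeded miR-322-3p by 12.6-fold and miR-195a-5p exceeded miR-195a-3p by 38.5-fold. The 2 opposite arms of miR-16-5p were specific to a gene and rare, with 4905 reads of miR-16-1-3p and 3577 of miR-16-2-3p.

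miR-322-3p was higher at D5 in irradiated C57Bl/6 mice, by 0.70 (SE 0.23, edgeR adjusted p = 0.0234), while miR-322-5p was at 0.05 (SE 0.19). From the same cluster miR-503-5p (0.73, adjusted p = 0.0137) and miR-542-5p (0.69, adjusted p = 0.0213) were also higher by edgeR. These were the 2 calls among 9 tested of 10 listed cluster neighbours. With 14.1% of all tested miRNA called at D5 in C57Bl/6, the cluster cannot be set apart from this background. The cluster neighbours had a median difference of 0.19 at D5, against 0.00 over all tested miRNA. In C3H no opposite arm or cluster neighbour was called at any time point.

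The strains differed before irradiation in 4 of 5 members, where 50.7% of all tested miRNA were called. miR-322-5p was higher in C57Bl/6 by 0.46 (SE 0.09, edgeR adjusted p = 5.63e-06). miR-15a-5p was lower in C57Bl/6 by -0.33 (SE 0.12, adjusted p = 0.0184), as were miR-15b-5p by -0.33 (SE 0.11, adjusted p = 0.0078) and miR-16-5p by -0.20 (SE 0.08, adjusted p = 0.0245). The value for miR-195a-5p was 0.10 (SE 0.08, adjusted p = 0.294).

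Only the miR-322-5p difference was called in the same direction in both pairs of codes. It was 0.41 (adjusted p = 0.00411) for G1 against G2 mice and 0.49 (0.000388) for G3 against G4. For miR-195a-5p the pairs gave opposite called values, -0.56 (1.75e-07) for G1 against G2 and 0.87 (3.09e-14) for G3 against G4, which cancelled in the pooled value. miR-15a-5p (-1.12 and 0.22), miR-15b-5p (-0.96 and 0.08) and miR-16-5p (-0.30, adjusted p = 0.0126, and -0.06, adjusted p = 0.661) were called in the first pair only. The pooled miR-16-5p difference was called in only 7 of 15 alternatives. The labels do not pair the codes. In level, miR-322-5p was also higher in G4 mice (C3H, 8.75 ± 0.39 SD) than in G1 mice (C57Bl/6, 8.61 ± 0.41). Codes are nested in strains, so that strain and code cannot be told apart for any member.

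Within 1 strain the code means lay as far apart as those of the strains, a difference that was not tested. In C3H, miR-195a-5p before irradiation was at 8.36 ± 0.32 in G2 mice and 7.41 ± 0.46 in G4 mice (SD, n = 48 each). In C57Bl/6, miR-15a-5p was at 4.33 ± 0.66 in G1 and 5.61 ± 0.53 in G3 mice, and miR-15b-5p at 5.16 ± 0.67 and 6.37 ± 0.56. miR-16-5p varied least, between 18.81 ± 0.36 (G3) and 19.38 ± 0.57 (G2).

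**Figure D5:**
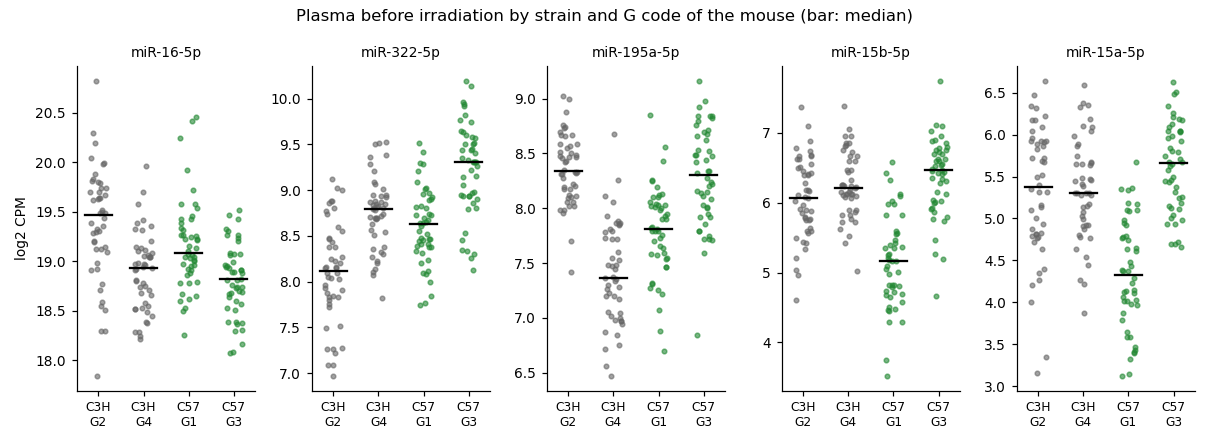
Each point is a mouse before irradiation (48 per code), with log2 CPM on the vertical axis, 1 panel per member and the strain and code on the horizontal axis; bars are medians. miR-322-5p was higher in G1 than in G2 and in G3 than in G4 mice, but its mean was also higher in G4 (8.75) than in G1 mice (8.61). miR-195a-5p was high in G2 and G3 mice (means 8.36 and 8.29) and low in G4 and G1 mice (7.41 and 7.79).

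Males and females before irradiation differed in 0 of 10 member comparisons, against 14.5% of all miRNA called in C3H and 14.7% in C57Bl/6. The lowest adjusted p was that of miR-322-5p in C3H, lower in males by -0.30 (SE 0.13, edgeR p = 0.019, adjusted p = 0.0897). The unadjusted p was also under 0.05 for miR-195a-5p in C3H (0.21, p = 0.0431 by edgeR) and for miR-16-5p in C57Bl/6 (-0.24, p = 0.0272 by edgeR). The irradiation effect differed between the sexes in 0 of 5 members in C3H (0.414% of all miRNA called) and in 0 of 5 in C57Bl/6 (5.38%), where the unadjusted p was under 0.05 for miR-195a-5p (above) and miR-15a-5p (p = 0.0168, adjusted p = 0.143 by edgeR).

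In sham mice, which were followed without irradiation, most members changed over time. The called changes were in opposite directions in the strains for miR-195a-5p and miR-15b-5p, and were falls in both for miR-16-5p. The edgeR F test over time points called 4 of 5 members in sham C3H (all but miR-322-5p, adjusted p = 0.44), where 46.0% of all tested miRNA were called. It called 4 of 5 in sham C57Bl/6 (all but miR-15a-5p, adjusted p = 0.166), where 62.9% were called. miR-15a-5p was called there in 7 of 15 alternatives. Among them was the mouse as a replicate block (limma adjusted p = 0.0497). Another was the own PT sample as a fixed replicate block (limma adjusted p = 0.0122). Time points are samples of the same mice at older ages, and since M2 and later samples came from G1 and G2 mice alone, the values within those codes are given as well.

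miR-195a-5p was higher than before at most later time points in sham C57Bl/6. It was at 8.01 ± 0.48 before (n = 32), 8.58 ± 0.57 at D2, 9.14 ± 0.43 at D5, 8.04 ± 0.58 at M1 and 8.92 ± 0.42 at M4 (n = 16, and 32 at M1). Against PT these are differences of 0.60, 1.12, 0.05 and 0.89, of which all but that at M1 passed (adjusted p = 3.18e-12 at D5 by edgeR). Within G1 mice they were 0.98, 1.48, 0.34 and 1.12, and the M1 value again did not pass (adjusted p = 0.219). At M6 the sham level was back at 8.10 ± 0.66, a difference from PT of 0.15 (edgeR adjusted p = 0.483). Within G3 mice D5 was higher by 0.78 (adjusted p = 0.0013), while D2 (0.23) and M1 (-0.21) were not called.

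In the mice themselves, miR-195a-5p was above the own PT sample in 16 of 16 sham C57Bl/6 mice at D5 and in 16 of 16 at M4, by 1.1 ± 0.52 (SD) at M4. In sham C3H it went the other way at M4, below the own PT sample in 16 of 16 mice, by -0.96 ± 0.37. The same was seen in irradiated C3H mice at M4, with 16 of 17 lower (-0.77 ± 0.65). Any difference of irradiated from sham mice therefore stood on a level that was itself moving.

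miR-16-5p fell in sham mice of both strains. In C3H it was at 19.11 ± 0.55 before (n = 32) and at 18.32 ± 0.42 at D2, a fall in 15 of 16 mice against their own PT sample. The fitted differences from PT in C3H were -0.83 at D2, -0.57 at M1, -0.44 at M3 and -0.64 at M4, all past the threshold, and within G2 mice -1.24, -0.83, -0.73 and -0.93. Within G4 mice, sampled to M1, they were -0.35 at D2 (adjusted p = 0.465) and -0.24 at M1 (0.448), neither called. In C57Bl/6 they were -0.33 at M1, -0.46 at M3 and -0.69 at M6. Within G1 mice they were -0.18 at M1 (adjusted p = 0.604, not called), -0.55 at M3 and -0.78 at M6, with a higher level at D2 (0.56, adjusted p = 0.0407), and within G3 mice -0.53 at M1 (0.00752). At M6 miR-16-5p was below the own PT sample in 15 of 16 sham and in 8 of 8 irradiated mice.

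The miR-451a to miR-23a-3p measure of haemolysis moved over the same samples. It was 0.76 ± 1.43 before, 0.53 ± 0.59 at D2, 0.59 ± 1.24 at M1, -0.33 ± 0.68 at M3 and 0.29 ± 0.70 at M4 in sham C3H. In sham C57Bl/6 it was -0.12 ± 0.82 before, -1.28 ± 1.36 at M1, -1.35 ± 0.72 at M3, -0.65 ± 0.56 at M4 and -0.87 ± 0.71 at M6. Its part in the fall of miR-16-5p was not tested.

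miR-15b-5p rose late in sham C57Bl/6, from 5.59 ± 0.73 before to 6.35 ± 0.63 at M3 and 6.56 ± 0.83 at M6, differences of 0.74 and 1.04. Within G1 mice, whose level before was lowest, they were 1.45 and 1.75 (edgeR adjusted p = 1.1e-10 at M6), and miR-15a-5p was then higher than before at every month from M2 on (0.86 at M2, 1.06 at M6). In sham C3H both fell, with a difference from PT of -1.03 for miR-15a-5p and -0.99 for miR-15b-5p at M4. In C57Bl/6, miR-322-5p was lower at D2 (-0.70) and higher at M6 (0.58).

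Members of the family did not all move together between mice before irradiation. Of 30 correlations computed in the 96 mice of each strain (members with each other and with miR-451a), 20 had an adjusted p under 0.05. The strongest was that of miR-15a-5p and miR-15b-5p, with Pearson r = 0.61 and Spearman rho = 0.63 in C3H and r = 0.81 and rho = 0.83 in C57Bl/6. Their permutation p of 1e-05 was the smallest that 100000 permutations can give (adjusted p = 6e-05 for r). Without the 2 mice farthest from the median of miR-15a-5p, r was 0.64 and 0.81. It held within codes, at 0.61 (G2), 0.62 (G4), 0.60 (G1) and 0.62 (G3).

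miR-15b-5p and miR-322-5p were also correlated in C57Bl/6 (r = 0.75, rho = 0.74, permutation p = 1e-05, adjusted p = 6e-05), at 0.69 within G1 and 0.53 within G3 mice and at 0.73 without the 2 farthest mice. In C3H the same pair gave 0.37 (rho = 0.37, permutation p = 0.00017, adjusted p = 0.000637), at 0.31 within G2 and 0.38 within G4. miR-15a-5p and miR-322-5p gave 0.62 in C57Bl/6, at 0.52 within G1 and 0.24 within G3. The permutations mixed both codes of a strain, so the pooled p-values do not allow for differences between codes. Several pairs with an adjusted p under 0.05 had the other sign within both codes. In C57Bl/6, miR-195a-5p gave 0.32 with miR-15a-5p (-0.07 in G1, -0.11 in G3) and 0.23 with miR-15b-5p (-0.26 and -0.15). There miR-15b-5p gave -0.25 with miR-16-5p (0.06 and 0.02). In C3H, miR-195a-5p and miR-451a gave 0.38 (-0.11 in G2, -0.31 in G4). Others were weaker or reversed. miR-195a-5p and miR-322-5p gave r = -0.53 in C3H (rho = -0.54), yet -0.07 within G2 and -0.31 within G4. miR-16-5p and miR-195a-5p gave 0.27 (rho = 0.33), yet -0.11 and -0.14. All values of a sample share its scaling and depth.

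The correlation of miR-16-5p with miR-451a, the red blood cell miRNA, was r = 0.35 (rho = 0.34, permutation p = 0.00044, adjusted p = 0.00147) in C3H and 0.31 (rho = 0.34, permutation p = 0.00223, adjusted p = 0.00557) in C57Bl/6, and 0.35 in both without the 2 farthest mice. Within codes it was 0.19 (G2), -0.04 (G4), 0.35 (G1) and 0.24 (G3), so that in C3H it did not hold within codes. miR-15a-5p had the higher values within a code, 0.55 in G2 and 0.58 in G1 mice, against 0.11 in G4 and 0.39 in G3.

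Over the 32 group means, the miRNA whose pattern was most like miR-15a-5p was miR-15b-5p (Pearson r = 0.804), followed by let-7d-5p (0.753) and miR-144-3p (0.708). For miR-15b-5p let-7d-5p (0.785) and let-7a-5p (0.756) came after miR-15a-5p. The nearest to miR-16-5p was miR-423-5p (0.774), to miR-195a-5p miR-223-3p (0.835) and to miR-322-5p miR-26a-5p (0.832). Of these, miR-223-3p is a known miRNA of neutrophils and other myeloid cells. No member was nearest to miR-16-5p or miR-195a-5p, and miR-16-5p and miR-322-5p gave -0.438. Group means share strains, codes and libraries, so these values are descriptions.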

How the data were processed

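The authors trimmed their small-RNA libraries and ran Illumina's BaseSpace Small RNA application, and the deposited values are whole-number read counts for each mature miRNA, not normalized. Strongly haemolysed plasma and libraries with few miRNA reads had been left out. The miRBase release and the use of molecular identifiers are not given in the sources used here, so limits from counts cover counting error only. Samples were grouped by the labels' strain, treatment and time point (32 groups of 8 to 68 samples).

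In R 4.3.3, edgeR 4.0.16 was used with TMM scaling (factors 0.372 to 1.59), filterByExpr (483 of 1915 miRNA, 99.99% of reads) and a quasi-likelihood model with 1 mean per group (867 residual degrees of freedom). P-values were adjusted over the 483 miRNA by Benjamini-Hochberg, with a threshold of 0.05. Strain, sex and time differences were F tests. Levels are log2 CPM (prior count 2). Correlations used 100000 permutations. The named miRNA were the 5 members, their seed-sharing, opposite-arm and cluster companions, and the nearest 3 miRNA by group means. The members and lists were chosen with earlier results of these data known. Samples of a mouse share its number in the labels, and their residuals had a consensus correlation of 0.0434 (limma 3.58.1). Alternatives were limma-voom, DESeq2 1.42.0, other scalings and filters, codes, sexes, covariates and replicate blocks. The scripts were tested on simulated data. Loci and sequences came from RefSeq (GRCm38.p6), and host genes and their introns from the GENCODE annotation. Each group had at least 8 samples, so no sample was left out in turn. The study's survival data were not analysed here.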

Additional observations from a re-analysis of the deposited data

Results flagged for a closer look

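In the 8 irradiated C57Bl/6 mice sampled at M6, the highest sample stood apart from the others in 3 members by Dixon's test at the 95% level. It was at 6.31 log2 CPM for miR-15a-5p (the other mice at 5.12 or lower), at 19.34 for miR-16-5p (18.54 or lower) and at 9.07 for miR-195a-5p (8.25 or lower). The high values of miR-15a-5p and miR-195a-5p came from 1 female mouse and that of miR-16-5p from another female. Chance flags about 1 in 20 groups of this kind. No member was called at M6, and the cause was not tested.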

How the results depend on the processing

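The main count of 4 called member effects in C57Bl/6, all of miR-195a-5p, became 2 in limma-voom and 2 in a fit of only the groups compared. It was 2 in females, 1 in males and 1 in the change from the own sample with a fixed replicate block. In codes G3 and G4, where 3 of the effects exist, it was 0. With the mouse as a replicate block it was 3, and in every other setting 3 to 6. Counts above 4 include other members, such as miR-15a-5p at D2 and D5 in codes G1 and G2. At D2, D5, M1 and M4 the miR-195a-5p difference was negative in all alternatives. It was called in 9 of 16 at D2, 13 of 16 at D5, 10 of 16 at M1 and 11 of 15 at M4. At M2 it was negative in 14 of 15. In C3H the count of 0 became 1 in DESeq2 (miR-16-5p at D2). With quantile normalization miR-16-5p was called at M4 in C57Bl/6 (0.19, limma adjusted p = 0.00417), but as it ranked first in 897 of 899 samples this scaling gives it nearly 1 value throughout, and nothing is read from that call. The strain difference before irradiation, 4 of 5 members, was 2 of 5 in codes G3 and G4 and 2 of 5 in males. The change over time in sham C3H, 4 of 5, was 2 with quantile normalization, 2 in males and 0 in codes G3 and G4, which have few time points. The sex difference before irradiation, 0 of 10, was 2 with quantile normalization, and the sex difference of the effect, 0 of 10, was 1 with code and sex as covariates (miR-195a-5p) and 1 (miR-322-5p) in codes G3 and G4.

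Of 1435 log2 differences under alternatives, 89 had another sign than reported, 85 of them not called in either. The 4 with a call in either were miR-15a-5p at D5 in C57Bl/6 within codes G1 and G2 (-1.05), the strain values of miR-15a-5p (0.22) and miR-15b-5p (0.08) in codes G3 and G4, and that of miR-195a-5p in codes G1 and G2 (-0.56). The causes were not tested. Of the single values under alternatives, 1729 kept their side of the threshold (signs as above), 39 lost the call and 18 gained it. DESeq2 was not run for the joint tests. Depth limits miR-15a-5p most, with a median of 46 reads per sample. Codes, whose meaning the labels do not give, separate mice as far as strain does, and later months hold survivors of 1 code per strain.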
